A study of Homo sapiens with 12 samples.

Results

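Marker-negative cells were cells with 15000 or more unique molecular identifiers (UMIs, tags that count single RNA molecules) and 0 raw UMIs of each of MKI67, TOP2A, CDK1 and CENPF. The rule found 4770 such cells among 23063 cells of that depth and 23914 cells in all. SCC1 gave 1105 of them, SCC6 gave 1316 and SCC25 gave 2349. The cells were selected on the measured UMIs of these 4 genes and on total UMIs. They came from 3 established HNSCC lines (carcinomas of the head and neck), profiled cell by cell in droplets (scRNA-seq). Each line had been given 100 nM of cetuximab, an antibody against the receptor EGFR, every day for 5 days, while its controls got only saline (PBS). With 2 replicates in each of the 6 groups (SCC1, SCC6 and SCC25, each with cetuximab or PBS) there were 12 samples. No other agent or altered allele is named in the labels, and a cell line in culture holds no stroma or immune cells. Whether the replicates were separate cultures is not clear, so the p-values may cover only the spread between libraries.

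All 4 genes of the rule act late in the cell cycle. MKI67 coats mitotic chromosomes, TOP2A untangles replicated DNA, CDK1 is the kinase that drives entry into mitosis and CENPF sits at kinetochores. Their transcripts build up from S phase to mitosis and are low in G1 and in cells that have left the cycle. Growth factor signals through EGFR and the MAPK cascade raise D-type cyclins, which lead to release of E2F factors, and E2F factors switch on genes for DNA replication. Genes for mitosis are switched on later, and many of them carry a short promoter element called CHR (cell cycle genes homology region).

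Promoters of 5 cell-cycle genes are shown with short words of DNA. Compared with all promoters, the E2F type was more frequent in those of replication genes and the CHR type in those of mitosis genes. The E2F-type words searched were the word TTGGCGC, the word TTCCCGC, the word TTGCCGC and the word TTCGCGC, and the CHR-type words were the word TTTGAA and the word TTTAAA, on both strands, in the 250 bases before each start in RefSeq (GRCh38.p14). TTTAAA reads the same on both strands. Among 35116 promoters, 10.9% held an E2F-type word and 21.9% a CHR-type word. An E2F-type word was present in 23 of 44 promoters of a list of 35 DNA replication genes, of which 31 genes matched the table. A CHR-type word was present in 25 of 43 promoters of a list of 40 G2 and mitosis genes, of which 34 genes matched. In the replication list, 7 of 44 promoters (15.9%) held a CHR-type word, a lower share than in all promoters. In the mitosis list, 9 of 43 (20.9%) held an E2F-type word. For the genes of the rule, all 5 promoters held a CHR-type word and 2 held an E2F-type word. A match of letters is a description and not a binding site. The E2F-type words are in capitals in the following 3 sequences, written 5′ to 3′ on the strand of the gene. They lie at chr15:64381442-64381691 (minus strand; PCLAF is an S-phase gene outside the lists, and of 2 promoters in the table this is the one that holds such words), chr16:88803539-88803788 (plus strand) and chr16:85688955-85689204 (minus strand).
PCLAF: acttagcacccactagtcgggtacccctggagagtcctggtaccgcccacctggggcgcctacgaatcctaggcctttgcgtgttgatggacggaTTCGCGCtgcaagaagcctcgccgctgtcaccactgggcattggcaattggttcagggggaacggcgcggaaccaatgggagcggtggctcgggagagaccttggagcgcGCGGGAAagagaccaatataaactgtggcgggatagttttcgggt
CDT1: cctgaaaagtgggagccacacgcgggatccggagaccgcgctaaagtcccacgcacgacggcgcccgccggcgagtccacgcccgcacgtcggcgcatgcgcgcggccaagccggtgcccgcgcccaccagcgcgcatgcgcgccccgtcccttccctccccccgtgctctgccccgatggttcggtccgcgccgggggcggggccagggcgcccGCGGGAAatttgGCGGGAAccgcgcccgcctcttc
GINS2: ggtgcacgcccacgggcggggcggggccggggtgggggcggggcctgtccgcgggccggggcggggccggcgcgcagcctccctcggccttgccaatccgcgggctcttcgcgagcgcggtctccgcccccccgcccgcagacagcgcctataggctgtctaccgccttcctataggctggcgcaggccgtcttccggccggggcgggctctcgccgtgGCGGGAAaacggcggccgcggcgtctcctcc
The CHR-type words are in capitals in the promoters of TOP2A, at chr17:40417897-40418146 (minus strand), and CENPF, at chr1:214602945-214603194 (plus strand), which are genes of the rule.
TOP2A: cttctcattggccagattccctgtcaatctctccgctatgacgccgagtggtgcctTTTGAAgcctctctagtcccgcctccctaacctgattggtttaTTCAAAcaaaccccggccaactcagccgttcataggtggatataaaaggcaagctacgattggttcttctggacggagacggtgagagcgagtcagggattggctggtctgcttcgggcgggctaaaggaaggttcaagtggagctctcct
CENPF: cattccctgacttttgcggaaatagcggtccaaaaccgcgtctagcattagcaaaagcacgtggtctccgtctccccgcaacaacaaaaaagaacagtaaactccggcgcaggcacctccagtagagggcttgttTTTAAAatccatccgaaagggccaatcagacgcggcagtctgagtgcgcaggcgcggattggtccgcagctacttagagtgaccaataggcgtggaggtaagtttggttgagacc
In the list of mesenchymal genes described later, 16.7% of promoters held an E2F-type word and 25% a CHR-type word, and among interferon-stimulated genes these shares were 15.4% and 23.1%.

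The cells were less free of cell-cycle transcripts than the rule alone would say, and whether they were in cycle was not tested. After each cell was thinned to 15000 UMIs, the median marker-negative cell held 5 to 10 UMIs of the 35 replication genes, depending on the sample, against 16 to 42 in the other cells. For the 40 mitosis genes, which leave out the genes of the rule, the medians were 5 to 15 UMIs against 24 to 87. In each of the 12 samples fewer than 2% of marker-negative cells (at most 1.98%) had no UMI of the replication genes. They are therefore called marker-negative and not quiescent. When 6 further cell-cycle genes were also required to be at 0, between 4.15% (SCC1 cetuximab, replicate 2) and 25.9% (SCC6 cetuximab, replicate 1) of them remained. These lines hold no cell type that lacks the 4 genes, so the share of UMIs from free RNA was not measured, and doublets with a cycling cell would be left out by the rule.

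The cutoffs did not fall at a gap in the data. Just inside the depth limit, between 15000 and 16000 UMIs, 98 of 236 cells (41.5%) had 0 UMIs of the 4 genes, and just outside it, between 14000 and 15000 UMIs, 85 of 205 (41.5%) did. A single UMI of the 4 genes, just outside the rule, was found in 3123 cells (13.5%) of the required depth. Among these deep cells MKI67 was detected in 59.1%, TOP2A in 53.8%, CDK1 in 56.3% and CENPF in 61.5%.

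Epithelial genes were detected in the marker-negative cells of each sample. The summed level of 14 epithelial genes was 12555 to 25143 CPM (counts scaled to the usual common library size) in the marker-negative cells of the 12 samples. Of 15 markers of other cell types, 14 stayed at or below 3.31 CPM in each sample. Over all marker-negative cells, the leukocyte gene PTPRC had 6 UMIs, the T-cell gene CD3E had 1, the myeloid gene LYZ had 5 and the globin gene HBB had 5, while ALB (hepatocytes) and TYR (melanocytes) had 0. The B-cell gene CD79A had 97 UMIs (at most 2.30 CPM in a sample), the other melanocyte gene PMEL had 223 (0.134 to 2.79 CPM, above 0 in each sample) and the fibroblast gene DCN had 252 (at most 3.31 CPM). LUM, a collagen-binding gene of fibroblasts, was higher, with 29.2 to 78.1 CPM in SCC25.

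Total UMIs per sample ranged from 5.70574e+07 to 1.1217e+08, and the marker-negative cells of a sample held 5147960 to 37637814 of them. Any pair of samples shared at most 2 cell barcodes among marker-negative cells. Mitochondrial genes made up over 20% of UMIs in 18 of the cells.

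Cetuximab raised the share of marker-negative cells. With the raw counts that define them, they made up 11.4% (138 of 1215; exact 95% Clopper-Pearson interval 9.63% to 13.3%) and 10.9% (178 of 1640; 9.39% to 12.5%) of the SCC1 PBS replicates 1 and 2. In SCC1 with cetuximab they made up 50.7% (476 of 938; 47.5% to 54.0%) and 23.2% (313 of 1347; 21.0% to 25.6%). Both treated SCC1 samples were above both controls, and they differed from each other far beyond counting error. SCC6 had the smallest change, from 14.7% (390 of 2652; 13.4% to 16.1%) and 8.13% (198 of 2436; 7.07% to 9.28%) with PBS to 22.5% (584 of 2592; 20.9% to 24.2%) and 8.79% (144 of 1639; 7.46% to 10.3%) with cetuximab. The SCC6 groups overlapped, as the second treated sample lay below the first control. In SCC25 the shares were 11.9% (261 of 2188; 10.6% to 13.4%) and 25.6% (642 of 2503; 23.9% to 27.4%) with PBS, and 28.9% (555 of 1920; 26.9% to 30.99%) and 44.7% (891 of 1993; 42.5% to 46.9%) with cetuximab. Here both treated samples were above both controls. The intervals cover counting error only.

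Because deeper cells are less likely to have 0 UMIs of a gene, the comparison was made after thinning each cell to 15000 UMIs. The thinned shares were 22.1% and 23.2% with PBS against 65.99% and 41.4% with cetuximab in SCC1, and 22.3% and 15.5% against 30.2% and 23.7% in SCC6. In SCC25 they were 20.6% and 40.1% against 41.1% and 61.4%. At this equal depth no line had overlapping groups, and the treated sample was higher in 6 of 6 pairs of samples that share a line and a replicate number. The group means (± SD, n = 2) for PBS and cetuximab were 22.7% ± 0.729 and 53.7% ± 17.4 for SCC1. For SCC6 they were 18.9% ± 4.81 and 26.9% ± 4.62, and for SCC25 30.4% ± 13.8 and 51.3% ± 14.4. The difference averaged 19.99 percentage points over the 3 lines (exact two-sided permutation test within lines, p = 0.00926, the smallest that the design allows). By line it was 31.1 points (SCC1), 8.02 (SCC6) and 20.9 (SCC25). With the raw counts the mean difference was 16.0 points (exact permutation p = 0.0278). A single line with 2 samples per group cannot reach 0.05 in such a test, so no p is given for the lines.

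**Figure D1:**
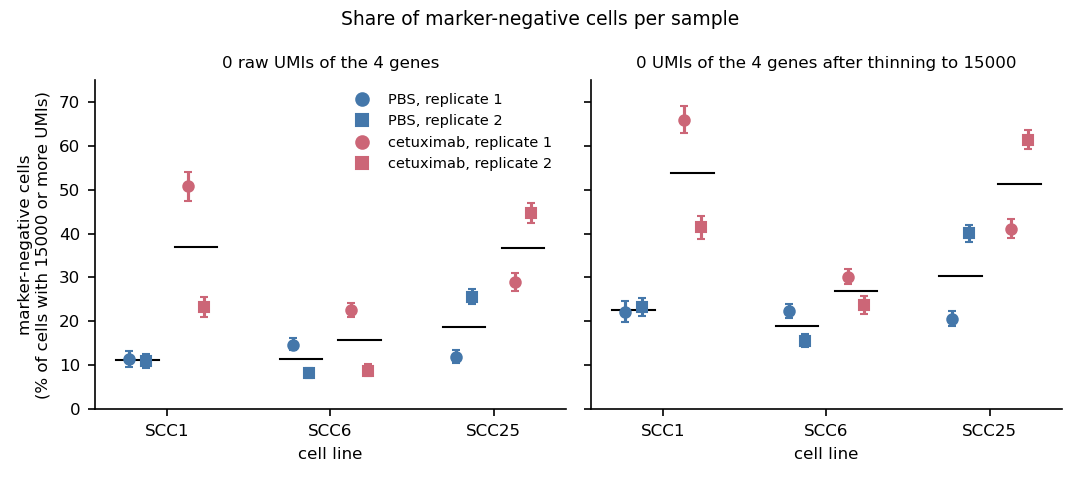
Share of marker-negative cells among cells with 15000 or more UMIs, in percent, by line, treatment and replicate. At equal depth the treated samples lie above the controls in all 3 lines, by a mean of 31.1 points (SCC1), 8.02 (SCC6) and 20.9 (SCC25).

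Marker-negative cells had fewer UMIs than the other cells of their sample, which the rule in part fixes, since a shallow cell has 0 UMIs of a gene more easily. Their median number of UMIs was lower in 12 of 12 samples, at 0.666 to 0.818 of the value in the other cells, and at 0.711 to 0.881 when membership was set after thinning. The number of genes detected per 15000 UMIs was also lower in 12 of 12, at 0.967 to 0.990 of the other cells, and the mitochondrial share was higher in 11 of 12 (2.58% to 6.10% against 2.43% to 5.63%). The median depth of the marker-negative cells differed between treatments. It was 33491.5 and 38390.5 UMIs in the SCC1 PBS samples and 48110 and 41959 in the cetuximab samples, and 26997 and 31723 against 37070 and 40458 in SCC25. In SCC6 it was 24313.5 and 26984 with PBS and 21631 and 40297.5 with cetuximab. A deeper cell with 0 UMIs of the 4 genes is held to a stricter rule, and how far this bears on cell-cycle genes in the comparisons was not tested.

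Compared with the other cells of the same sample, the marker-negative cells had less of every cell-cycle gene of the replication and mitosis lists. This contrast is the one that chose the cells, so it is described without a test. All 35 replication genes were lower in 12 of 12 samples, with a median log2 ratio between -2.38 and -1.25, and all 40 mitosis genes were lower in 12 of 12, with a median between -4.00 and -2.86. PCNA, the sliding clamp of DNA polymerase, had log2 ratios of -2.78 to -1.32, and CCNB1, the cyclin of CDK1, of -4.03 to -3.01. Over all 14444 genes tested, 1411 (9.77%) were higher and 1972 (13.7%) lower in 12 of 12 samples.

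**Figure D2:**
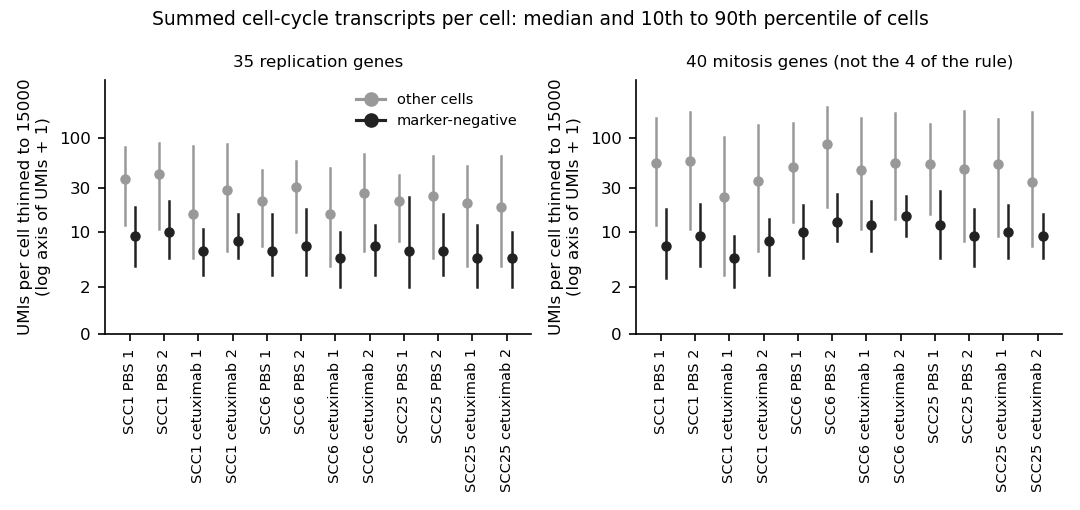
Transcripts of the replication and mitosis lists per cell, in UMIs per 15000, in marker-negative and other cells of each sample. Medians of marker-negative cells lie between 5 and 10 (replication) and 5 and 15 (mitosis), below those of the other cells in each sample.

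The regulators of G1 did not move as a block. Of 30 G1 cyclins, inhibitors of cyclin-dependent kinases (CDKs) and quiescence regulators, 5 were higher and 12 lower than in the other cells of 12 of 12 samples. CDKN1A, which encodes the CDK inhibitor p21, was higher in 12 of 12 (log2 ratio 0.19 to 0.86), and so was BTG1, an antiproliferative gene (0.24 to 0.65). CDKN2B, which encodes the CDK4 and CDK6 inhibitor p15, was higher in the 8 samples of SCC1 and SCC25 (0.78 to 1.57). It had 0 UMIs in the marker-negative cells of all 4 SCC6 samples. CDKN1B, which encodes the inhibitor p27, was lower in 12 of 12 (-0.60 to -0.12). Outside the list, TXNIP, a thioredoxin-binding gene that is high in resting cells, was higher in 12 of 12 (0.09 to 1.25), and EGFR itself was higher in 12 of 12 (0.13 to 0.57). CCND1, the D-type cyclin induced by growth factors, was higher in 11 of 12 (-0.15 to 0.47). E2F1 and CCNE2, which act at entry into S phase, went the other way, with log2 ratios of -3.47 to -1.04 and -3.22 to -0.80.

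**Figure D3:**
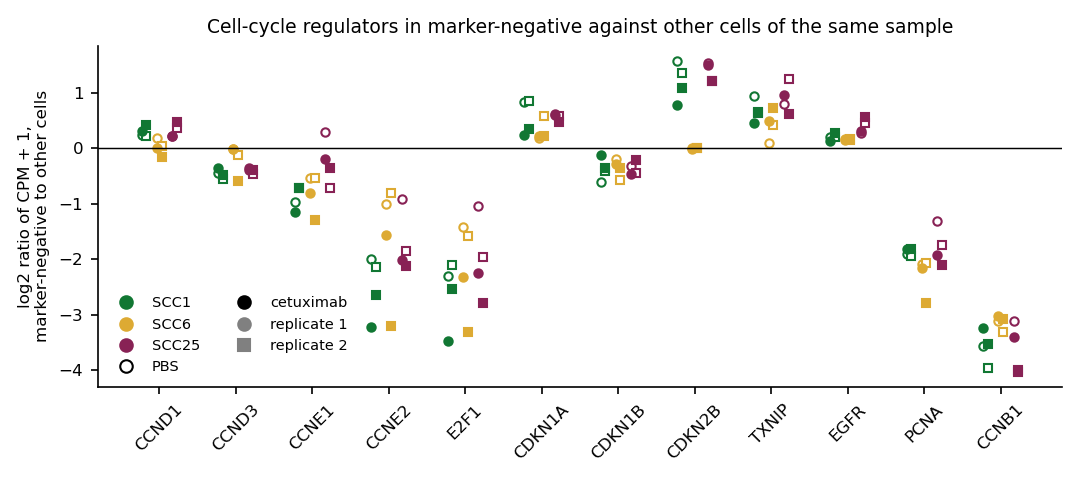
Log2 ratio of CPM + 1 in marker-negative cells to that in the other cells, for 12 regulators, by line and treatment (open PBS, filled cetuximab; circle replicate 1, square replicate 2). CDKN1A, TXNIP and EGFR lie above 0 in all 12 samples, and CDKN1B, E2F1, CCNE2, PCNA and CCNB1 below 0 in all 12.

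What cetuximab changed within the marker-negative cells was tested on UMIs summed per sample, over 14444 genes, with the quasi-likelihood test of edgeR and a false discovery rate (FDR) of 0.05. Rose and fell below refer to genes that passed this test. Because samples of equal replicate number may be paired, which the labels do not state, the result with the replicate number as a block is given beside it where it changes a call. Control samples of a line are shared by its own comparison and by the mean of the lines. In a bulk sum over these cells, fewer expressing cells and less RNA per cell cannot be told apart.

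SCC6 had the most changes, as 195 genes rose (1.35% of those tested) and 101 fell (0.699%), or 866 (6.0%) and 851 (5.89%) when blocked. In SCC1, 4 genes rose (0.0277%) and 1 fell (0.00692%), while 206 (1.43%) and 111 (0.768%) passed with the block. In SCC25, 2 genes rose (0.0138%) and 0 fell (0.0%), and with the block 178 (1.23%) and 145 (1.0%). At an unadjusted p under 0.05 there were 1010 genes in SCC1, 2290 in SCC6 and 1008 in SCC25, and DESeq2 called 100, 672 and 54. The SCC1 calls were SPARC, ACHE, SULT1E1, TH and HRASLS2, and the SCC25 calls CPA4 and SPARC. ACHE, SULT1E1, TH and HRASLS2 were named after their values were seen. Averaged over the lines, 269 genes rose (1.86%) and 114 fell (0.789%), or 1040 (7.2%) and 962 (6.66%) when blocked. Leaving out single samples moved these counts widely: SCC6 had 7 calls when its PBS replicate 1 was dropped, 17 when its cetuximab replicate 1 was and 79 when its cetuximab replicate 2 was, and the mean of the lines had between 76 and 394.

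Genes of the mesenchymal and contractile programme, which build actin bundles and matrix, were the list with the largest positive median in SCC6 and in the mean. Of the 32 gene symbols of this list, 30 were found in the count tables and 28 were tested. The median log2 fold change of the 28 reached 0.97 for SCC1, 2.21 for SCC6, 1.11 for SCC25 and 1.51 for the mean, against 0.01, 0.00, 0.00 and 0.02 over all genes. In the mean, 13 of 28 rose and none fell, in SCC6 10 of 28, and in SCC1 and SCC25 1 of 28 each, with 11 (and 1 lower, TGFBI), 18, 14 and 16 of 28 passing with the block in SCC1, SCC6, SCC25 and the mean. Dropping PBS replicate 1 of SCC6 left 1 call there (median 1.81), dropping its cetuximab replicate 1 left 3 (median 2.25), and the mean had 8 to 14 calls whichever sample was dropped. With samples left out in turn, the median was 0.55 to 1.35 in SCC1 and 0.72 to 1.66 in SCC25. With membership set after thinning, over 30 genes, it was 0.53 in SCC1, 2.33 in SCC6, 1.14 in SCC25 and 1.49 in the mean. No gene of the list then passed in SCC1 or SCC25.

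TAGLN, an actin-binding protein of smooth muscle, had 344 and 159 CPM in the SCC1 PBS samples and 1483 and 726 CPM with cetuximab, in the order of replicates 1 and 2. It had 171 and 232 CPM against 1006 and 1593 CPM in SCC6, and 175 and 109 CPM against 746 and 1074 CPM in SCC25. Each treated sample was above each control of its line. The effect was 2.54 ± 0.43 (log2 fold change ± SE, FDR 0.0186, lost without any of the 4 SCC6 samples) in SCC6 and 2.42 ± 0.25 (FDR 0.00149) in the mean. In SCC1 and SCC25 it passed with the block only (FDR 0.0031 and 0.00172, against 0.2 and 0.178). TPM1, a tropomyosin that stabilises actin filaments, had 633 and 487 CPM with PBS and 1318 and 972 CPM with cetuximab in SCC1, 171 and 348 against 1533 and 2147 in SCC6, and 527 and 438 against 1345 and 1224 in SCC25. Its groups did not overlap in any line, and it rose in SCC6 (2.69 ± 0.31, FDR 0.00632, but 0.0516 without PBS replicate 1) and in the mean (1.68 ± 0.17, FDR 0.00149).

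Matrix genes were among those that rose in SCC6. COL4A1, a chain of basement membrane collagen, had 12.1 and 14.3 CPM with PBS and 145 and 138 CPM with cetuximab in SCC6 (3.27 ± 0.53, FDR 0.015). In SCC1 the values were 19.2 and 7.10 against 56.5 and 25.3 CPM, and in SCC25 31.9 and 13.8 against 71.8 and 46.2 CPM. The gap was widest in SCC6, where the call was lost without any of 3 samples, and the mean effect was 2.08 ± 0.29 (FDR 0.00692). COL5A1, a fibrillar collagen, rose by 3.87 ± 0.42 in SCC6 (FDR 0.00586), from 4.59 and 11.9 CPM to 143 and 114 CPM. MYL7, a light chain of cardiac myosin, rose in SCC6 from 2.30 and 7.51 CPM to 175 and 241 CPM (5.34 ± 0.56, FDR 0.00586) and in the mean by 4.14 ± 0.35 (FDR 4.8e-04). VIM, an intermediate filament of mesenchymal cells, rose in SCC6 from 25.8 and 167 CPM to 945 and 1122 CPM (3.32 ± 0.70, FDR 0.0375), had at most 1.37 CPM in each SCC1 sample, and was 304 and 128 CPM against 393 and 339 CPM in SCC25, with an FDR of 0.971. The VIM call in SCC6 was lost, with an FDR of up to 0.180, when any of 6 samples was left out. FN1, a fibronectin, had 539 and 816 CPM with PBS and 3925 and 3601 CPM with cetuximab in SCC6 and passed with the block only (FDR 8.9e-05, against 0.182).

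SPARC, a matrix glycoprotein that binds collagen, rose in each line: in SCC1 from 199 and 166 CPM to 742 and 521 CPM (1.74 ± 0.21, FDR 0.0216). SCC6 and SCC25 had almost none. The marker-negative cells of the SCC6 controls held 1 and 1 UMIs and the treated ones 24 and 13, and those of SCC25 2 and 6 against 46 and 95, so the counts and not a fold change are given. The SCC1 call was lost without any of 5 samples (FDR up to 0.463). The SPARC call in SCC25 was lost, among others, without either PBS replicate of that line. With membership set after thinning, and in a fit of the samples of the line alone, SPARC passed in neither SCC1 nor SCC25. In SCC25 it also did not pass with a minimum of 30000 UMIs. CPA4, a carboxypeptidase, rose in SCC25 from 11.8 and 9.29 CPM to 67.5 and 75.4 CPM (2.72 ± 0.23, FDR 0.00249) and in SCC6 from 9.37 and 11.7 to 34.9 and 36.4 CPM (FDR 0.0103), and had 13.2 and 8.47 against 30.6 and 33.9 CPM in SCC1 (FDR 0.093, with the block 0.00641). Its SCC25 call was lost without PBS replicate 2 of that line (FDR 0.107). TGFB2, a ligand of the transforming growth factor family, passed with the block in SCC25 (24.5 and 12.1 against 85.4 and 84.5 CPM, FDR 0.00419, against 0.284 without it) and rose in the mean (2.25 ± 0.27, FDR 0.00365). Of 14444 genes tested, 45 were higher and 20 lower in every line with the block, which assumes a pairing. Without the block, SCC1 had only 5 calls and SCC25 only 2. The 45 included TAGLN, TPM1, MYL9, CALD1, COL4A1, FN1 and CPA4, and the 20 included AQP3, ELF3, LY6D, CDT1, GINS2, MCM5 and PCLAF.

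**Figure D4:**
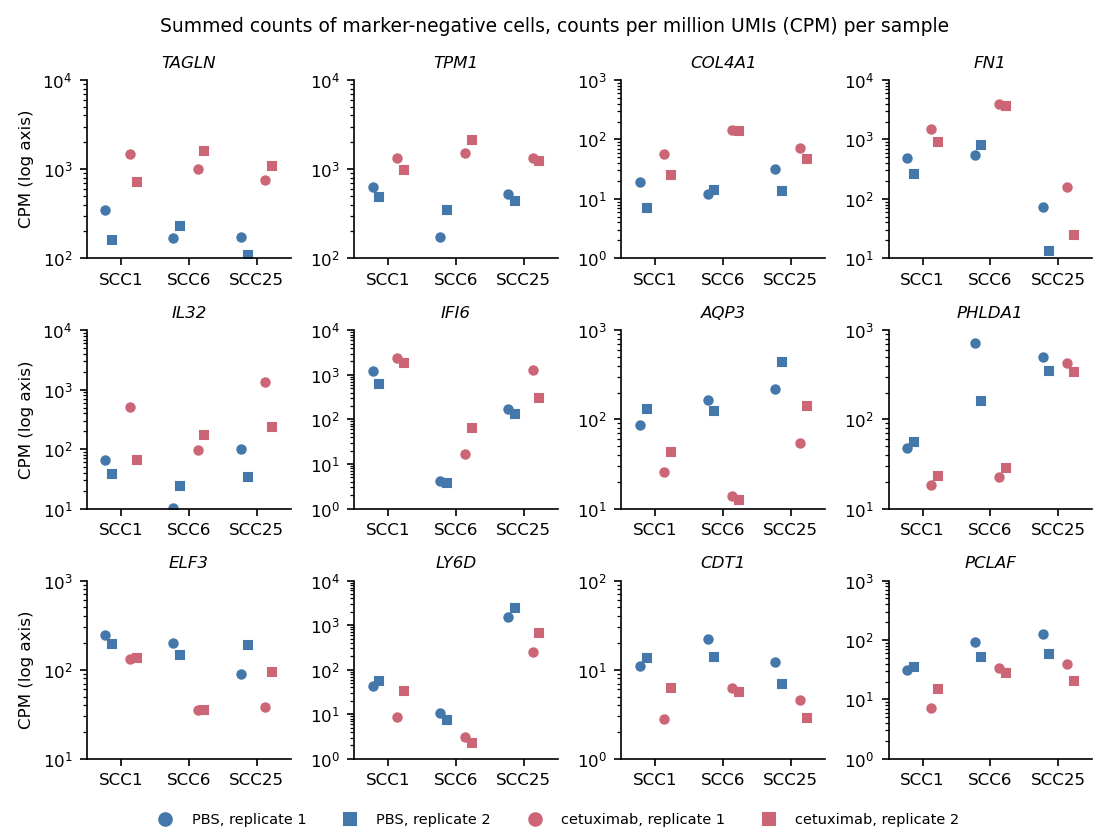
CPM in the summed marker-negative cells of each sample, on a log axis, for 12 genes. TAGLN, TPM1 and COL4A1 are higher and AQP3, CDT1 and PCLAF lower in both treated samples of each line than in both controls, with the change in COL4A1 largest in SCC6 (12.1 and 14.3 CPM against 145 and 138).

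Interferon-stimulated genes had medians of 1.23 in SCC1, 0.95 in SCC25, 0.27 in SCC6 and 0.86 in the mean, over 28 genes. The SCC6 median turned to -0.07 without cetuximab replicate 2, -0.02 with membership after thinning and -0.10 with 0 UMIs of 10 genes, and that of SCC25 was 0.43 without cetuximab replicate 1 and 1.40 without cetuximab replicate 2. In the mean 2 of 28 passed, and with the block 12 of 28 in SCC1, 3 in SCC6, 4 in SCC25 and 15 in the mean. IFI6, a mitochondrial interferon-induced protein, rose in the mean (2.23 ± 0.40, FDR 0.0165), with 1229 and 638 CPM against 2431 and 1799.6 CPM in SCC1, 4.11 and 3.67 against 16.9 and 64.4 CPM in SCC6, and 170.4 and 129.6 against 1302 and 299 CPM in SCC25. ISG15, a ubiquitin-like protein, rose in the mean by 1.32 ± 0.28 (FDR 0.0343). Treated replicates were unequal. In SCC25 replicate 1 had 4043 CPM of ISG15 with cetuximab and replicate 2 had 1391 CPM, against 964 and 947 CPM with PBS. IL32, a proinflammatory cytokine outside the list, rose in the mean (2.94 ± 0.57, FDR 0.0243), with 99.0 and 33.4 CPM against 1361 and 239.9 CPM in SCC25. Its groups overlapped in SCC1, at 66.05 and 37.6 against 505 and 65.1 CPM. The mean effects of IFI6 and IL32 lost their calls when 4 and 6 of the 12 samples, respectively, were left out in turn. CXCL10, a chemokine that attracts T cells, had 8 and 5 UMIs in the SCC1 controls and 12841 and 773 with cetuximab in the marker-negative cells, and passed with the block only (FDR 0.0114, against 0.2).

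In SCC6, genes that report EGFR and MAPK signalling had a median of -1.29 over 25 genes. Of these, 6 fell and none rose, and 11 were lower with the block. PBS replicate 1 stood apart, with a summed level of 3449 CPM against 1920 CPM in PBS replicate 2 and 1029 and 1733 CPM with cetuximab. Without it the median was -0.61 and 1 gene was called, and without cetuximab replicates 1 and 2 in turn 0 and 1 were. The 14 stress and RNA quality genes also had a median below 0 in SCC6 (-0.70, 11 of 14 below 0, none passing), with summed levels of 1985 and 1179 CPM against 931 and 1542 CPM that overlapped, and their part in the result was not tested. PHLDA1, which is switched on by MAPK signalling, fell from 721 and 160.3 CPM to 22.4 and 28.3 CPM (-4.32 ± 0.60, FDR 0.00993). DUSP4, a phosphatase that feeds back on MAPK, fell from 119 and 45.2 CPM to 12.5 and 18.4 CPM (-2.62 ± 0.42, FDR 0.015). The EGFR ligand EREG fell from 216.1 and 86.8 CPM to 8.89 and 13.01 CPM (-3.99 ± 0.52, FDR 0.00919) and HBEGF, another ligand, from 132 and 25.7 CPM to 4.77 and 14.7 CPM (-3.29 ± 0.73, FDR 0.047). The untreated replicates of these genes differed by more than the treated ones. The HBEGF call was lost when any of 9 samples was left out, and those of EREG, PHLDA1 and DUSP4 when any of 2, 2 and 3 was. The list had medians of -0.23 in SCC1 and -0.03 in SCC25, and of its 25 genes none passed in either line without the block. PHLDA1 had 504 and 348 CPM against 434 and 340.2 CPM in SCC25.

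**Figure D5:**
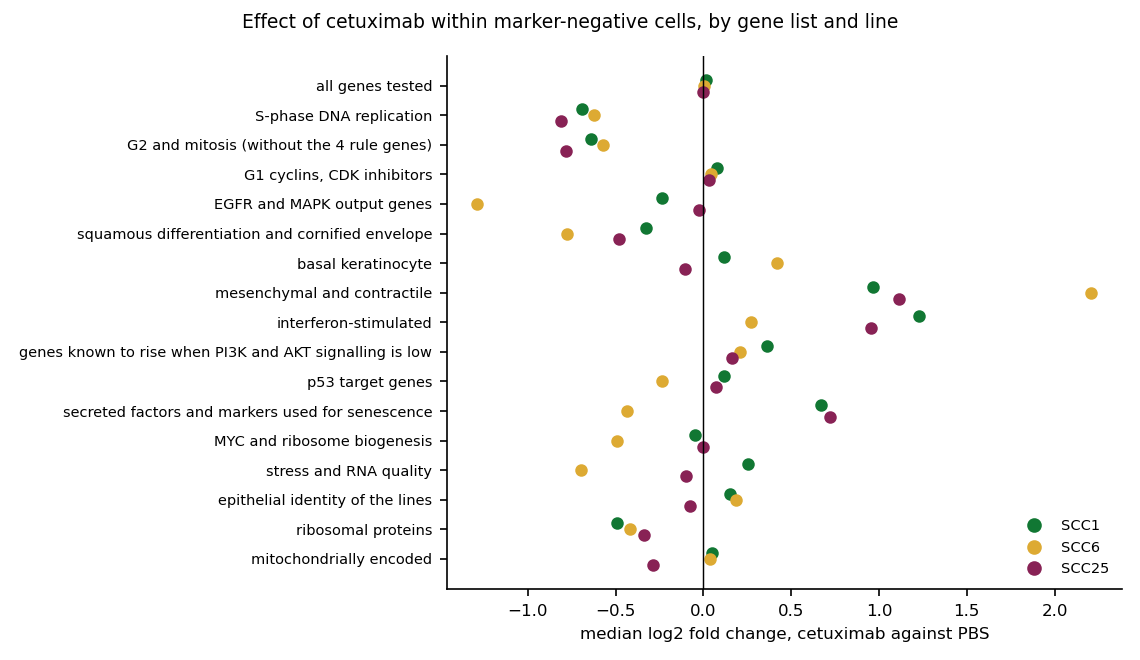
Median log2 fold change of cetuximab against PBS within marker-negative cells for each gene list and line. The mesenchymal list has the largest positive median in SCC6 (2.21), the EGFR and MAPK list the lowest in SCC6 (-1.29), and the replication and mitosis lists lie below 0 in all 3 lines.

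Squamous differentiation genes had medians of -0.33, -0.78, -0.48 and -0.60 over 30 of 40 genes in SCC1, SCC6, SCC25 and the mean. None passed in SCC1 or SCC25, 3 fell in SCC6 and 4 in the mean, and with the block 3 in SCC1, 8 in SCC6 (and 3 higher), 5 in SCC25 and 8 in the mean (and 3 higher). The summed level of the 40 genes in SCC1 was 2225 and 2200 CPM with PBS and 1777 and 3014 CPM with cetuximab, so its groups overlapped, and without PBS replicate 1 the SCC1 median was 0.46. The SCC6 median was -0.17 without PBS replicate 1 and -0.01 with 0 UMIs of 10 genes, and that of SCC25 was -0.10 without PBS replicate 2. With a sample left out the filter passed 32 or 33 genes of the list. AQP3, a channel for water and glycerol, is outside the list. It had 86.2 and 131 CPM with PBS and 25.5 and 42.6 CPM with cetuximab in SCC1, 166 and 124 against 13.9 and 12.4 in SCC6, and 221 and 439 against 54.7 and 142 in SCC25. It fell in SCC6 (-3.62 ± 0.54, FDR 0.0107, lost without any of 3 samples) and in the mean (-2.39 ± 0.29, FDR 0.00365), and the groups did not overlap in any line. ELF3, an epithelial transcription factor, fell in the mean (-1.46 ± 0.25, FDR 0.0154). LY6D, a surface protein of stratified epithelium, had 1564 and 2432 CPM against 245 and 667 CPM in SCC25 and fell in the mean (-1.78 ± 0.36, FDR 0.0307). The mean calls of LY6D and ELF3 were lost without any of 7 and 4 samples (FDR up to 0.109 and 0.0613). The keratin KRT13, of the list, had 213 and 959.9 against 18.2 and 309 CPM in SCC25. KRT15, a keratin of a separate list of 14 basal keratinocyte genes, had 187 and 373 against 18.9 and 106 CPM there. Both passed with the block only (FDR 0.00799 and 0.00398, against 0.796 and 0.492). The basal list did not fall as a set, with medians of 0.12 in SCC1, 0.42 in SCC6 and -0.11 in SCC25, where 7 genes were above and 7 below 0.

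Replication genes had medians below 0 for cetuximab against PBS inside the marker-negative cells. The median was -0.69 in SCC1, -0.62 in SCC6, -0.81 in SCC25 and -0.74 in the mean, and 34, 33, 35 and 34 of 35 genes were below 0. No replication or mitosis gene passed in a single line without the block, and with it 8, 11 and 8 of 35 replication genes were lower in SCC1, SCC6 and SCC25. In the mean 5 of 35 fell, and with the block 23 of 35. For mitosis genes the medians were -0.64, -0.57, -0.78 and -0.70, and 3 of 40 fell in the mean, 20 with the block. In SCC1 the replication and mitosis medians were -0.39 and -0.20 without cetuximab replicate 1 and -1.11 and -1.44 without cetuximab replicate 2. Over all 12 samples left out in turn, the mean gave 0 to 13 replication and 0 to 11 mitosis calls. CDT1, which licenses origins of replication and whose promoter is shown above, had 11.1 and 13.4 CPM against 2.83 and 6.28 CPM in SCC1, 22.0 and 13.8 against 6.29 and 5.599 in SCC6, and 12.2 and 6.99 against 4.56 and 2.87 in SCC25. It fell in the mean (-1.56 ± 0.25, FDR 0.0128), and its groups did not overlap in any line. GINS2, part of the replicative helicase, fell by 1.21 ± 0.23 (FDR 0.0214) and MCM5, another helicase subunit, by 1.11 ± 0.23 (FDR 0.0352) on the log2 scale in the mean. PCLAF, a PCNA-binding protein outside the list, fell in the mean (-1.58 ± 0.28, FDR 0.0164, lost without any of 4 samples).

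Other definitions of the cells moved these medians. With 0 UMIs of 10 genes required in place of 4, which are all cell-cycle genes and leave SCC6 with 1 sample per group, the replication median was -0.49 in SCC6 and -0.12 in SCC25 and the mitosis median -0.05 and -0.08, over the 24 and 17 genes that could be fitted. With cells of 30000 or more UMIs the replication median was -0.86 in the mean, and with membership set after thinning -0.84, against -0.74.

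Other growth-related lists are described by their counts. Of the 30 G1 cyclins, CDK inhibitors and quiescence regulators none passed without the block in any line, and the medians were 0.08, 0.04 and 0.03. CDKN1A had 63.5 and 56.7 CPM against 85.6 and 73.4 CPM in SCC1, 45.3 and 85.9 against 106 and 129 in SCC6, and 79.1 and 89.6 against 116 and 86.6 in SCC25 (mean 0.42 ± 0.15, FDR 0.176, with the block 0.0279). CDKN2B had 68.2 and 42.9 against 185 and 127 CPM in SCC1 and 46.8 and 73.7 against 106 and 165 CPM in SCC25, and passed with the block only (FDR 0.0031 and 0.00757). The 77 ribosomal protein genes had medians of -0.49, -0.42 and -0.34, with 77, 77 and 76 below 0. In the mean 1 of them fell, and with the block 75 were lower in the mean, 23 in SCC1, 39 in SCC6 and 1 in SCC25. Medians of 24 MYC and ribosome biogenesis genes were -0.05, -0.49 and 0.00, with 1 that fell in SCC6 and 10 lower there with the block, and medians of p53 target genes 0.12, -0.24 and 0.07.

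No gene's effect of cetuximab was shown to differ between the 3 lines in the test of that difference (edgeR, 0 of 14444, 0.0%). There were 863 genes at an unadjusted p under 0.05, and 128 (0.886%) passed with the block and 108 in DESeq2. The 5 genes with the smallest p were EMP1, DKK1, FGFBP1, LY6K and KRT7 (FDR 0.247 to 0.318, with the block 0.0121 to 0.0267). DKK1, a secreted inhibitor of WNT signalling, fell in SCC6 from 427 and 178 CPM to 31.6 and 64.9 CPM (FDR 0.0168, lost without either of 2 samples). In SCC1 it had 94.6 and 75.9 against 449 and 264 CPM (FDR 0.261, with the block 0.0366), and in SCC25 444 and 574 against 622 and 867 CPM. Both treated samples were thus lower in SCC6 and higher in SCC1 and SCC25. KRT7, a keratin of simple epithelia, had 378 and 333 against 212 and 217 CPM in SCC6, 3216 and 3732 against 5575 and 5781 CPM in SCC1, and 1126 and 1389 against 2234 and 2535 CPM in SCC25. EMP1, an epithelial membrane protein, fell in SCC6 from 41.7 and 22.4 to 3.47 and 4.61 CPM.

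Whether cetuximab acted differently in marker-negative and other cells was tested as an interaction within samples, over 16853 genes. It passed for 68 genes in SCC1 (0.403%), 9 in SCC6 (0.0534%), 14 in SCC25 (0.0831%) and 113 in the mean of the lines (0.671%), or 427 (2.53%) with the block. With membership set after thinning, 15 of the 68 SCC1 genes were still called. The 52 SCC1 calls were then 14 higher and 38 lower, against 42 higher and 26 lower before. In SCC6, SCC25 and the mean, 4 of 9, 9 of 14 and 64 of 113 were still called. The other genes were not shown to respond alike in both classes. The genes called include the cell-cycle genes PCLAF, CKS2, CCNA2 and MCM5. In the mean, 11 of 35 replication genes were called, all lower in the difference, against 0.671% of all genes. Of the 40 mitosis genes, 5 were called lower and 1 higher. The classes were set by cell-cycle transcripts, and how far that moved these values was not tested. The median interaction of 30 mesenchymal genes was 0.43 in SCC1, -0.23 in SCC6 (19 of 30 below 0), 0.07 in SCC25 and 0.12 in the mean, and 2, 0, 1 and 3 of them passed, higher in marker-negative cells.

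In SCC1, UACA, a regulator of apoptosis, had 11.5 and 12.6 CPM with PBS and 19.1 and 19.2 CPM with cetuximab in marker-negative cells, and 25.1 and 32.0 against 18.9 and 23.5 CPM in the other cells. The treated values were above the controls in the marker-negative cells and below them in the other cells, and the difference was 1.15 on the log2 scale (FDR 2.6e-04). AKAP12, a scaffold for protein kinase A, had 35.9 and 25.8 against 64.4 and 33.8 CPM, and 76.1 and 45.8 against 66.5 and 28.7 CPM in the other cells (difference 1.07, FDR 2.0e-04). For IGFL2-AS1, a noncoding RNA whose reads may overlap a gene on the other strand, marker-negative cells had 69.0 and 37.0 against 37.7 and 37.3 CPM, and the other cells 17.9 and 13.6 against 24.0 and 20.4 CPM (difference -0.91, FDR 7.5e-04). In SCC25, CXCL14, a chemokine of epithelia, had 35.4 and 27.1 against 12.3 and 10.5 CPM, and 9.45 and 6.69 against 6.80 and 5.49 CPM in the other cells (difference -1.12, FDR 0.00356). CPA4 had 27.9 and 37.6 CPM in the other SCC25 cells with cetuximab, against 67.5 and 75.4 CPM in the marker-negative ones, from 9.62 and 8.19 and from 11.8 and 9.29 CPM with PBS (difference 0.87, FDR 0.00809). Marker-negative cells were thus the class with the wider change for CPA4 and CXCL14 in SCC25.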

How the data were processed

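The 12 samples were 3 established HNSCC lines (SCC1, SCC6, SCC25) with cetuximab or PBS, 2 replicates per group, measured by droplet scRNA-seq (Chromium 3′ kit). The authors deposited raw UMI counts per gene and cell, 1 table per line, with no normalisation. Per the labels and methods, reads were aligned with Cell Ranger and cells were pre-processed with Monocle. GRCh38 is named in the submitters' processing notes, and versions are not given in the sources used here. Counts of 24 repeated symbols were added, and 33514 symbols remained. Groups and replicate numbers came from the sample labels, and no doublet caller was run.

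Marker-negative cells were chosen with results of these data already known, as were the gene lists and tests, and levels of the 4 genes are not tested. For shares, 15000 UMIs were drawn at random from each cell, without replacement. For genes, raw counts of marker-negative cells were summed per sample (at least 20 cells required), scaled by TMM and tested in edgeR 4.0.16 (R 4.3.3; filterByExpr, quasi-likelihood, 1 mean per group of 6, 6 residual degrees of freedom, Benjamini-Hochberg over all genes tested, FDR threshold 0.05). The class difference was tested on 24 sums with sample as block. Ratios to the other cells used CPM + 1. The scripts were tested on simulated data. Deviations of samples with equal replicate number from their group means correlated at 0.295 (SCC1), 0.270 (SCC6) and 0.545 (SCC25) over 14444 genes. Genes are not independent and each group had 2 replicates, so this does not establish a pairing. The replicate numbers come from the sample labels, which state no pairing. The fit with the replicate block therefore assumes it, and leaves fewer residual degrees of freedom than the main fit. DESeq2 1.42.0 was an alternative. The genes described with values were up to 8 per direction, line and fit by absolute log2 fold change (FDR below 0.05, CPM of 50 or more in the higher group, same direction in both pairs), filled from the fit with the replicate block, 5 by smallest p for tests of differences, and any gene of the lists. RefSeq promoters were read from GRCh38.p14. Figures and summaries used pandas 2.3.3 and matplotlib 3.10.9, and exact permutation tests used numpy 2.4.6.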

Additional observations from a re-analysis of the deposited data

Results flagged for a closer look

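The effect of cetuximab differed between the marker-negative and the other cells in the test of that difference (edgeR interaction, FDR under 0.05) for the following genes. The values are differences in log2 fold change, marker-negative minus other cells, with 5 genes by smallest p for each line and the mean. Cell-cycle genes of the replication, mitosis and cyclin lists are left out because the classes were set by cell-cycle transcripts. In SCC1 the differences were 1.07 for AKAP12 and 1.15 for UACA. The value for IGFL2-AS1 was -0.91. CXCL10 had 4.39 and CXCL11 had 6.0, but these rest on few UMIs: the marker-negative cells of the PBS samples held 8 and 5 UMIs of CXCL10 and 1 and 0 of CXCL11, against 12841 and 773 and 2314 and 279 with cetuximab. In the other cells the counts were 1701 and 883 against 10004 and 4660 for CXCL10, and 370 and 109 against 1804 and 961 for CXCL11. Both differences changed sign when membership was set after thinning.

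In SCC6 the difference was -1.47 for SLC2A3, a glucose transporter, -0.93 for LYPD6B and 0.70 for the heat shock gene HSPA1A, whose reads may be split with its near-identical copy HSPA1B. CARD16 had -8.25, a fitted value with 0 and 0 UMIs in the treated marker-negative cells, 22 and 10 in the untreated ones, and 64 and 57 against 24 and 12 in the other cells. In SCC25 the differences were -1.12 for CXCL14, 0.87 for CPA4 and 2.86 for SPARC. SPARC had 2 and 6 UMIs with PBS and 46 and 95 with cetuximab in marker-negative cells, and 31 and 63 against 22 and 71 in the other cells. PCLAF, an S-phase gene, had -1.33 in SCC25 and -1.15 in the mean of the lines. The mean also gave -0.56 for IGFL2-AS1 and 0.58 for UACA.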

How the results depend on the processing

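The share difference was above 0, with p below 0.05, under each alternative tried. It was 16.0 points with raw counts, 20.4 points with cells of 30000 or more UMIs, 9.09 points with 0 UMIs of 10 genes and 15.9 to 24.1 points when samples were left out in turn. The replicate block gave p = 0.03125 (exact sign-flip test), the smallest it allows. Of 89 named effects over 1751 values under alternatives, 2 reversed: with membership set after thinning, the class difference in SCC1 was -1.63 for CXCL10 and -1.60 for CXCL11. Of the 54 that passed, 19 passed whichever sample was left out. The cause of these and the following changes was not tested.

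Pairing by the replicate block raised the genes called in marker-negative cells from 5 to 317 in SCC1, 296 to 1717 in SCC6, 2 to 323 in SCC25, 383 to 2002 in the mean and 0 to 128 for the difference between lines, and those of the class difference from 68 to 368, 9 to 147, 14 to 327 and 113 to 427 in the mean. It ended the call of no named effect.

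With no low-count filter the counts in marker-negative cells were 358 (SCC1), 1022 (SCC6), 362 (SCC25), 1237 (mean) and 367 (between lines), and for the class difference 222, 94, 147 and 246. DESeq2 called 100, 672, 54, 905 and 108. A fit of the samples of a line alone called 0 in SCC1, 196 in SCC6 and 0 in SCC25. Membership after thinning gave 2 in SCC1 and 584 in the mean, and 15 (SCC6), 66 (SCC25) and 242 (mean) for the class difference, and a median log2 ratio of replication genes to the other cells of -1.60, against -1.98. A minimum of 30000 UMIs gave 190 in SCC6 and 1 in SCC25, and 28 (SCC25) and 75 (mean) for the class difference. With 0 UMIs of 10 genes, 37 were called in SCC6 and 1 in SCC25. That rule left a SCC1 arm under 20 cells, and it left SCC6 with 1 sample per group, which is assumed to vary like the others. DESeq2 size factors gave 7 for the class difference in SCC25. With samples left out in turn, the counts were 0 to 8 in SCC1, 7 to 352 in SCC6, 0 to 9 in SCC25, 76 to 394 in the mean and 0 to 5 between lines, and 35 to 174, 5 to 44, 10 to 179 and 65 to 204 for the class difference. Low counts limited CARD16, SPARC (outside SCC1), CXCL10 and CXCL11.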
